A study of Nothobranchius furzeri with 68 samples.

Results

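The liver response to 24 h without food was measured in young wild-type males of Nothobranchius furzeri, the turquoise killifish of African ephemeral pools, which has a very short life span. The comparison set 3 fasted livers (fish 31, 32 and 33) against 3 livers of males fed ad libitum (fish 45, 46 and 47), which is 6 of the 68 libraries of the series and 6 of its 41 livers. All 6 fish were 6.5 weeks old, male and wild type (WT), and none carried the heterozygous aprt genotype (Het) that other groups of the series have. Fish were chosen by their labels alone, each library was the liver of 1 fish, and no fish was sampled in both feeding states. RNA was polyadenylated RNA of the whole organ, so fewer cells of a type and less RNA per cell cannot be told apart.

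During a fast, insulin falls, and FoxO transcription factors, which insulin signalling keeps out of the nucleus, become active. Glucocorticoids and glucagon raise the breakdown of amino acids and the release of glucose. The kinase complex mTORC1, which senses amino acids and promotes growth, is held down by proteins such as the sestrins, and autophagy rises. The liver is also a secretory organ, and the chaperones of its endoplasmic reticulum (ER) fold the plasma proteins it exports after a meal. In mammals these branches of the response are well described.

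The 6 libraries held between 21394956 and 30742935 counts. Hepatocyte markers, such as fibrinogen and complement genes, were high in all 6 livers, with a summed level over 16 markers of 167248 to 178574 CPM (counts scaled to the library size) in fed and 136906 to 213508 CPM in fasted livers, and none of them was at 0. Fed fish 45 stood apart in other markers. Its 19 leukocyte markers summed to 138 CPM against 16.4 to 20.5 CPM in the other 2 fed fish, mostly from mpx, the myeloperoxidase of granulocytes, at 98.9 CPM, and its 14 stellate and fibroblast markers summed to 560 CPM against 178 to 216 CPM. Endocrine pancreas markers summed to 79.0 CPM in fasted fish 32, with the glucagon gene gcg at 31.9 CPM, and to as little as 0.786 CPM in another fasted fish. Exocrine pancreas markers ranged from 1910 to 2030 CPM in fed and from 671 to 2806 CPM in fasted livers. Marker genes that were called included mpx and the haem synthesis gene urod, both lower in fasted livers at an adjusted p under 0.05, and the pericyte marker rgs5b, which was higher. Without fed fish 45, no leukocyte or erythroid marker was called, and the same held without fasted fish 32 or 33. The erythroid call was also lost without fed fish 46 or 47, and the leukocyte call without fasted fish 31. In urod the fed fish had 7.09, 7.09 and 7.08 CPM and the fasted fish 4.27, 2.85 and 3.57 CPM. Of 17 leukocyte markers tested, 11 had a log2 fold change above 0, and of 13 stellate and fibroblast markers, 10 had one below 0. The copy rgs5a had 16.7, 20.2 and 18.3 CPM in fed and 17.6, 21.2 and 18.1 CPM in fasted fish. The part of these cells in the results below was not tested. A fit without fish 45 leaves out the whole fish, not these cells alone.

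Fasting changed the liver transcriptome in both directions. Of 17406 genes tested, 1854 (10.7%) were called, meaning an adjusted p under 0.05 in edgeR, with 1134 higher in fasted fish (6.51%) and 720 lower (4.14%). The median log2 fold change of the called genes, fasted minus fed, was 1.05 for rises and -1.13 for falls, while the median of all genes tested was -0.02. A change of more than 1 log2 unit was found in 612 rises and 427 falls, and of more than 2 log2 units in 171 rises and 108 falls. All 3 fasted livers lay outside the range of the 3 fed livers for 1084 of the called rises and 693 of the called falls. Over all genes tested, 2887 (16.6%) were without overlap and higher in fasted fish, and 2804 (16.1%) were without overlap and lower.

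**Figure D1:**
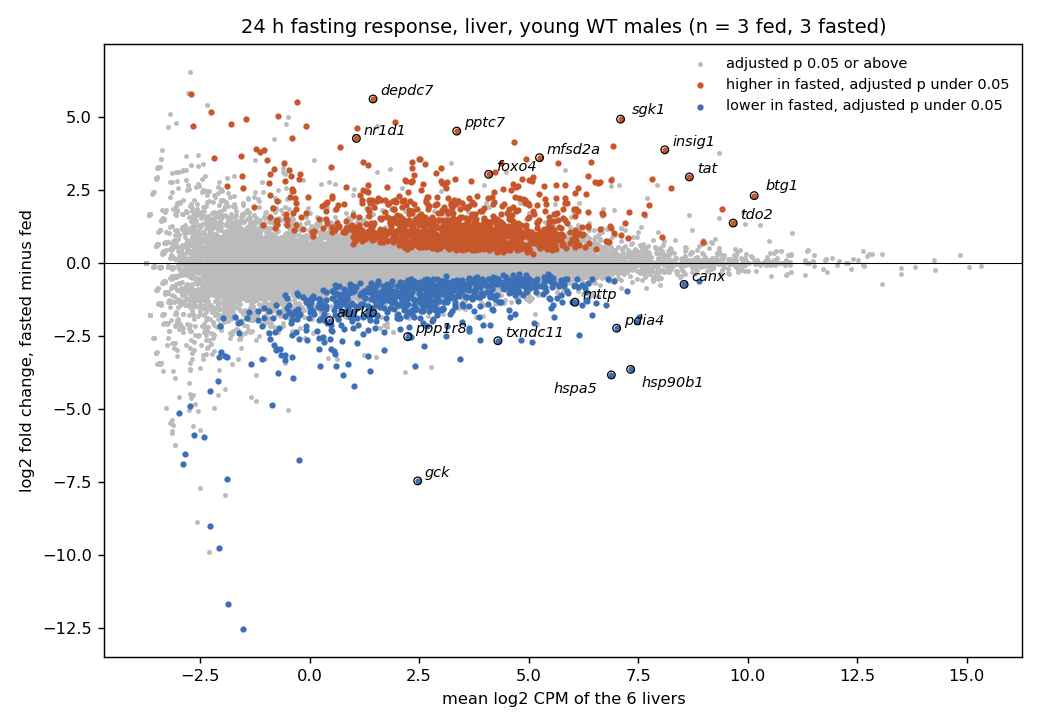
Log2 fold change (fasted minus fed) of each gene tested against its mean level in the 6 livers in log2 CPM. Orange points are the 1134 genes higher in fasted fish, blue points the 720 genes lower and grey points the genes not called. The ringed gck and the ER chaperones hspa5 and hsp90b1 lie far below 0, and depdc7, sgk1 and nr1d1 far above.

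Single fish weighed on the count of calls. It was 813 without fasted fish 33, 879 without fed fish 47, 904 without fasted fish 32 and 1089 without fed fish 45, against 2245 without fasted fish 31, and 585 genes (3.36%) were called in the full comparison and without each fish in turn. Of these 585 genes, 442 rose (2.54%) and 143 fell (0.822%). On the first principal component of the 6 livers, which took 47.3% of the variance, the fed fish lay at -48.6, -33.8 and -46.9, fasted fish 31 at 6.9, and fasted fish 32 and 33 at 51.4 and 71.1. Fasted fish 31 was thus nearest to the fed fish. Across the called rises, its median log2 CPM minus the fed mean was 0.76, against 1.09 in fish 32 and 1.17 in fish 33. Across the called falls, the same measure was -0.88 in fish 31, -1.25 in fish 32 and -1.24 in fish 33. Fish 31 was the nearest of the 3 fasted fish to the fed mean for 791 of the 1134 rises (69.8%) and 443 of the 720 falls (61.5%).

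The ER folding and secretion genes were the list with the highest share of calls. Of 49 members tested, 19 fell and none rose, and 38 were without overlap and lower in all 3 fasted fish. Among all genes tested, 4.14% fell and 16.1% were without overlap and lower. The median log2 fold change of the 49 was -0.62. Their summed level was 7317 to 7782 CPM in fed livers and 4450 to 5121 CPM in fasted livers. The falls included chaperones, disulfide isomerases and the machinery that passes new proteins into the ER.

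The chaperone hspa5, known as BiP, the Hsp70 of the ER, had 435, 395 and 566 CPM in fed fish 45, 46 and 47 and 18.1, 37.2 and 41.9 CPM in fasted fish 31, 32 and 33. Every fasted fish lay more than 1 log2 unit under every fed fish, and the log2 fold change was -3.84 ± 0.959 (SE, adjusted p 0.00831). The Hsp90 of the ER, hsp90b1, had 494, 600 and 625 CPM in fed fish and 47.1, 46.5 and 43.4 CPM in fasted fish. Its fasted values were nearly level with each other, and it fell by 3.65 on the log2 scale (SE 0.750, adjusted p 0.00181). The disulfide isomerase pdia4 went from 241, 291 and 311 CPM to 55.6, 66.2 and 56.9 CPM, a log2 fold change of -2.24 ± 0.464 (adjusted p 0.00193), and its relative pdia6 had a log2 fold change of -2.47 ± 0.501 (adjusted p 0.00159). The lectin chaperone calnexin, canx, which holds glycoproteins while they fold, fell less, from 462, 500 and 487 CPM to 309, 268 and 290 CPM (log2 fold change -0.74 ± 0.176, adjusted p 0.00594).

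Other genes of this compartment were among the 12 largest falls that met the rule for naming. That rule asked for a symbol and a mean log2 CPM of at least 1, and it left out some larger falls. The ER lectin malectin, mlec, had 8.91, 7.13 and 10.6 CPM in fed and 1.23, 1.16 and 0.942 CPM in fasted fish (log2 fold change -2.99 ± 0.703, adjusted p 0.00554). The thioredoxin-domain gene txndc11 had a log2 fold change of -2.67 ± 0.548 (adjusted p 0.00181), and manf, a secreted ER stress protein, one of -2.63 ± 0.649 (adjusted p 0.00774). The canopy gene cnpy2 had -2.73 ± 0.628 (adjusted p 0.00465) and clgn, a calnexin relative, -2.28 ± 0.520 (adjusted p 0.00430). No overlap between fed and fasted fish and a call without each fish in turn were conditions for naming these 5 genes. Further members named for their values were hyou1, an Hsp70 relative, at -2.72 (adjusted p 0.0118), sec61a1a, a channel subunit of the translocon, at -2.14 (adjusted p 0.0278), and srp72 of the signal recognition particle at -1.23 (adjusted p 0.0110). The transcription factor xbp1, which drives many ER genes, was not called, with 222, 209 and 244 CPM in fed fish, 234 CPM in fasted fish 31, and 120 and 104 CPM in fish 32 and 33 (adjusted p 0.411).

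The fall in ER genes was of like size in every fasted fish. Over the 19 called members, the median log2 CPM minus the fed mean was -1.63, -1.59 and -1.59 in fish 31, 32 and 33, so fish 31 did not lie nearer to the fed fish here. The summed exocrine pancreas markers overlapped between the feeding states, as given above, while 1 of the 6, ptf1a, had 1.17, 1.16 and 1.28 CPM in fed and 0.342, 0.449 and 0.325 CPM in fasted fish, and the part of pancreas in the fall of ER genes was not tested. The number of members called was 7 without fasted fish 33, 9 without fed fish 47, 10 without fasted fish 32 and 12 without fed fish 45, and 7 members were called without each fish in turn.

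**Figure D2:**
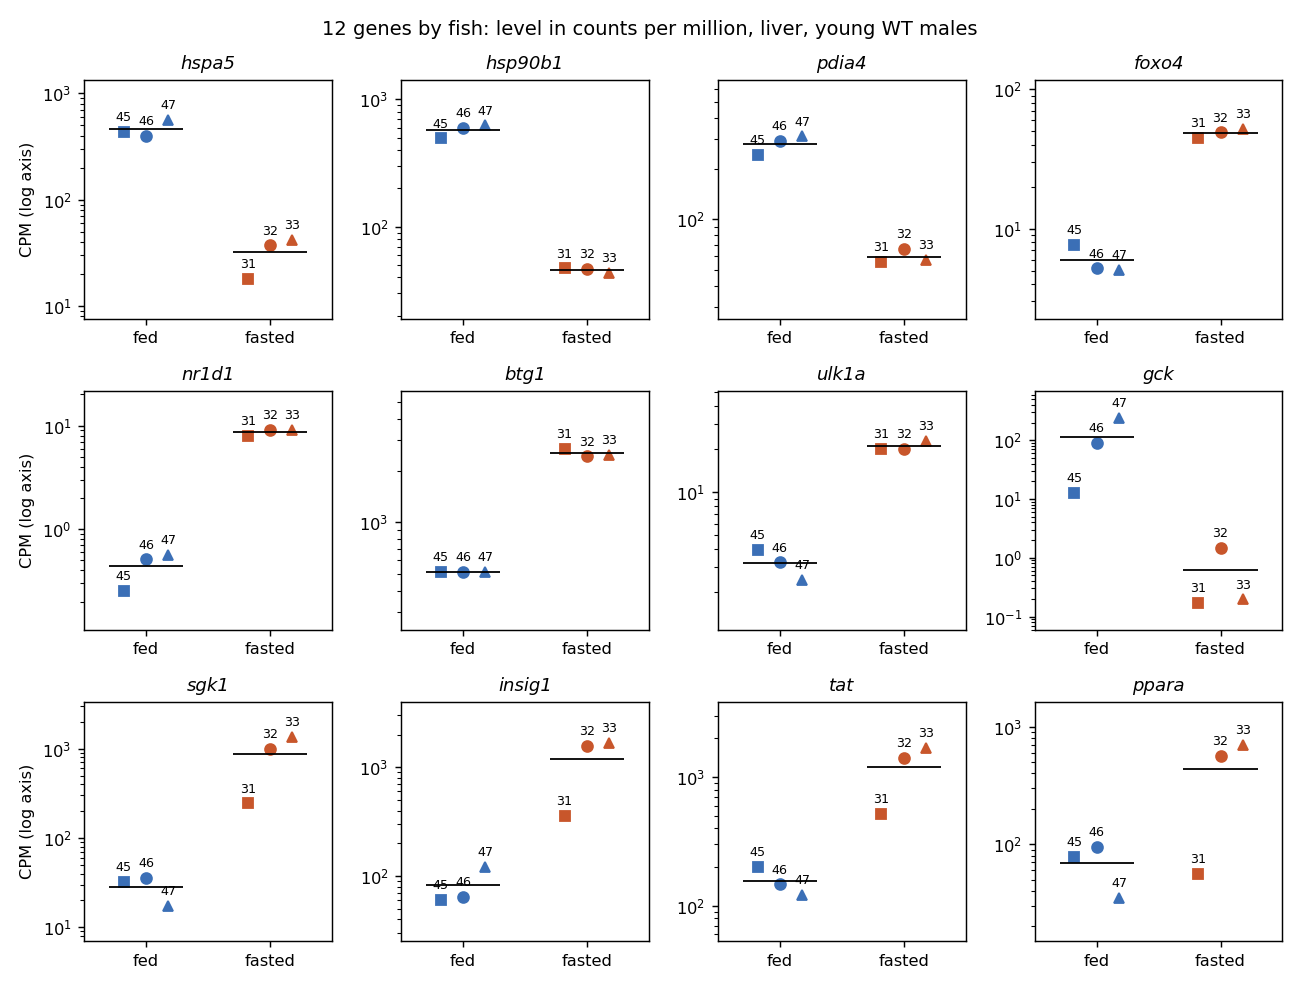
Level of 12 genes in CPM (log axis) in each fed fish (blue, 45 to 47) and fasted fish (orange, 31 to 33), with the mean of each group as a bar. The 3 fasted fish lie close together for hsp90b1, pdia4, foxo4, nr1d1, btg1 and ulk1a, whereas fish 31 lies under fish 32 and 33 for sgk1, insig1, tat and ppara.

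In the insulin, FoxO and growth hormone list, 6 of 30 members rose and 1 fell, and in the list of mTORC1 regulators and translation control 7 of 21 rose and none fell. Among all genes tested, 6.51% rose and 4.14% fell. The median log2 fold changes of these lists were 0.38 and 0.41. Without overlap and higher in fasted fish were 10 of the 30 and 13 of the 21, against 16.6% of all genes. A log2 fold change below 0 was found in 9 of the 30 and 7 of the 21.

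The forkhead factor foxo4 had 7.64, 5.18 and 5.07 CPM in fed and 44.8, 49.1 and 52.2 CPM in fasted fish. Its 2 groups were far apart beside their spread, with a log2 fold change of 3.03 ± 0.352 (adjusted p 4.01e-06). Its relative foxo1 had 7.27, 6.41 and 5.67 CPM in fed and 38.6, 72.0 and 57.3 CPM in fasted fish (3.12 ± 0.699, adjusted p 0.00371). The insulin receptor substrate irs2 had 21.3, 14.6 and 20.2 CPM in fed and 56.3, 73.3 and 93.4 CPM in fasted fish, and rose by 1.99 ± 0.491 log2 units (adjusted p 0.00758). The growth hormone receptor gene ghrb rose by 1.71 ± 0.404 log2 units (adjusted p 0.00582). The member that fell was pik3r1, a regulatory subunit of the PI3 kinase that carries the insulin signal, from 133, 124 and 118 CPM to 57.1, 44.3 and 36.8 CPM (-1.44 ± 0.378, adjusted p 0.0118), and this call was lost without 2 of the 6 fish in turn. The insulin-like growth factor binding protein gene igfbp1a, which insulin represses in mammals, had 33.3, 31.3 and 12.6 CPM in fed fish, 21.9 CPM in fasted fish 31, and 273 and 400 CPM in fish 32 and 33. Its log2 fold change was 3.17 (adjusted p 0.0555), and without fish 31 it was 3.71 (adjusted p 0.0226). Fish 31 lay within the fed range, so a larger change without it was fixed by that choice.

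Among the mTORC1 regulators, flcn, the folliculin gene, had 2.19, 2.86 and 1.24 CPM in fed and 7.96, 24.8 and 32.4 CPM in fasted fish. Fish 31 lay between the fed fish and the other 2 fasted fish, and the log2 fold change was 3.37 ± 0.562 (adjusted p 0.000228). Its binding partner fnip1 rose less, by 0.88 ± 0.210 log2 units (adjusted p 0.00599). The sestrin sesn2, a leucine sensor in mammals, rose by 2.75 ± 0.597 log2 units (adjusted p 0.00282) and sesn1 by 1.71 ± 0.419 log2 units (adjusted p 0.00735). The Rag GTPase gene rragc, which recruits mTORC1 to the lysosome, had 21.3, 22.6 and 19.2 CPM in fed and 32.3, 42.3 and 45.9 CPM in fasted fish (0.93 ± 0.173, adjusted p 0.000713). The mTORC1 list had 5 to 7 rises without each fish in turn, whereas the insulin list had 4 without fasted fish 32, fed fish 46 or fed fish 47 and 9 without fasted fish 31.

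Of 59 autophagy and lysosome genes, 12 rose and none fell (20.3% called, against 10.7% of all genes). A log2 fold change above 0 was found in 45 and below 0 in 14, and the median was 0.34. Without overlap and higher were 24, against 16.6% of all genes. The kinase that starts autophagy is present as ulk1a and ulk1. The first had 3.91, 3.21 and 2.42 CPM in fed and 20.0, 20.0 and 22.9 CPM in fasted fish (2.72 ± 0.468, adjusted p 0.000320), and the second rose by 1.51 ± 0.295 log2 units (adjusted p 0.00112). The lipid transfer gene atg2b, which feeds the growing autophagosome, went from 10.7, 14.3 and 9.77 CPM to 30.7, 39.9 and 40.0 CPM (1.67 ± 0.251, adjusted p 6.56e-05). The membrane factor atg14 rose by 1.40 ± 0.276 log2 units (adjusted p 0.00123) and the cargo receptor nbr1 by 1.20 ± 0.257 log2 units (adjusted p 0.00262). The cargo receptor sqstm1 had 26.4, 44.1 and 26.0 CPM in fed fish, 51.1 CPM in fasted fish 31, and 477 and 521 CPM in fish 32 and 33 (3.44, adjusted p 0.0155). The regulators of lysosomal genes tfe3 and tfe3a rose by 1.10 and 0.98 log2 units (adjusted p 0.00637 and 0.00505). The list had 7 rises without fed fish 47 and 8 without fasted fish 33, and 7 members were called without each fish in turn.

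Ubiquitin ligase adaptors, which choose proteins for degradation, had 6 rises and no falls among 20 members, and 12 were without overlap and higher. Among all genes tested, 6.51% rose and 4.14% fell, while 16.6% were without overlap and higher and 16.1% lower. Over all 46 genes with an F-box symbol (fbxo, fbxl or fbxw), a family picked after its values were seen, 9 rose and 2 fell, with a median of 0.14. The atrophy gene fbxo32, an F-box protein known from wasting muscle in mammals, was near 0 in fed fish, at 0, 0.102 and 0.168 CPM, and had 1.30, 1.16 and 1.59 CPM in fasted fish (3.81 ± 0.570, adjusted p 6.17e-05). Its fed values rest on 0, 3 and 5 reads, so the size of its fold change is uncertain. The gene klhl24, a ligase adaptor of the kelch family, had 22.5, 25.5 and 72.7 CPM in fed and 246, 274 and 282 CPM in fasted fish (2.73 ± 0.604, adjusted p 0.00329). The F-box gene fbxl2 rose by 3.57 ± 0.747 log2 units (adjusted p 0.00209), and the ligase gene nedd4 by 1.05 ± 0.199 (adjusted p 0.000882). The adaptor list had 4 rises without fasted fish 32, fed fish 45 or fed fish 47. Of 36 proteasome subunits 2 fell and 1 rose (8.33% called), while 19 were without overlap and lower, and their median was -0.33. The core subunit psma1 had 13.2, 13.1 and 14.0 CPM in fed and 7.93, 7.58 and 7.73 CPM in fasted fish (-0.79 ± 0.217, adjusted p 0.0152), and the ubiquitin receptor adrm1 rose by 0.51 ± 0.154 log2 units (adjusted p 0.0296). In a fit of these 6 libraries alone, 11 subunits fell and 1 rose, and without fasted fish 32, fasted fish 33 or fed fish 47 none was called.

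Glucocorticoid-responsive genes rose in 6 of 19 cases and fell in none, with a median of 0.77. Among all genes tested, the shares were 6.51% higher and 4.14% lower. Of the 19, 6 had a log2 fold change below 0. Without overlap, 8 were higher and 2 lower in fasted fish. The kinase sgk1, induced by glucocorticoids in many tissues, had 32.3, 35.4 and 17.5 CPM in fed and 244, 1003 and 1339 CPM in fasted fish (4.92 ± 1.09, adjusted p 0.00333). The receptor gene itself, nr3c1, had 15.1, 14.8 and 12.2 CPM in fed and 36.3, 25.5 and 25.4 CPM in fasted fish (1.05 ± 0.249, adjusted p 0.00584), and here fish 31 was the highest. The transcription factor zbtb16b rose by 2.79 ± 0.590 log2 units (adjusted p 0.00229). The Krüppel-like factor klf9 had 0.840, 0.648 and 0.604 CPM in fed and 14.1, 25.7 and 19.9 CPM in fasted fish. The 2 groups did not overlap, but the call of klf9 (4.83 ± 1.36, adjusted p 0.0191) held in 2 of the 6 fits without 1 fish. The list had 4 rises without fed fish 45, 46 or 47 or fasted fish 32.

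Amino acid catabolism and the urea cycle had 6 rises and no falls among 52 members (11.5% called, against 10.7% of all genes). The rises were split by fish. Tyrosine aminotransferase, tat, a classical glucocorticoid target, had 202, 147 and 122 CPM in fed and 520, 1411 and 1682 CPM in fasted fish (2.94 ± 0.526, adjusted p 0.000481). Tryptophan dioxygenase, tdo2, had 528, 559 and 448 CPM in fed and 1443, 1143 and 1341 CPM in fasted fish, all 3 of them alike (1.36 ± 0.283, adjusted p 0.00206). The arginase gene arg2 had 0.292, 0.205 and 0.0336 CPM in fed fish and 0.137, 7.81 and 16.7 CPM in fasted fish, so fish 31 lay within the fed range (5.52 ± 1.61, adjusted p 0.0234). The fed values of arg2 rest on 8, 6 and 1 reads, and its call held in 2 of the 6 fits without 1 fish. The glutaminase gene gls2a had 36.5, 73.1 and 38.4 CPM in fed and 118, 384 and 545 CPM in fasted fish (2.82 ± 0.824, adjusted p 0.0238). Its call also held in 2 of the 6 fits. Over the 6 called members the median log2 CPM minus the fed mean was 1.09 in fish 31, 3.12 in fish 32 and 3.50 in fish 33. The list had 3 rises without fasted fish 33, fed fish 45 or fed fish 47 and 4 without fasted fish 32 or fed fish 46.

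Genes of the amino acid response, which the factor ATF4 drives when amino acids run short, had 7 rises and 1 fall among 32 members. This was 25% called, against 10.7% of all genes. A log2 fold change above 0 was found in 18 and below 0 in 14. Without overlap, 9 were higher and 3 lower, against 16.6% and 16.1% of all genes. The factor ATF4 itself, as atf4a, had 42.8, 38.0 and 33.9 CPM in fed and 57.3, 83.9 and 84.7 CPM in fasted fish (0.98 ± 0.155, adjusted p 0.000121). The copy atf4b rose by 0.90 ± 0.196 log2 units (adjusted p 0.00286). The ATF4 partner cebpg rose by 1.20 ± 0.202 (adjusted p 0.000260) and ppp1r15b, a phosphatase subunit that restores translation, by 1.41 ± 0.282 (adjusted p 0.00142). In fish 31 the median shift of the 7 called rises was 0.59 log2 units, against 1.70 and 1.71 in fish 32 and 33. The member that fell was psat1, an enzyme of serine synthesis (-2.32, adjusted p 0.0498), and its call was lost without each of the 6 fish in turn.

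**Figure D3:**
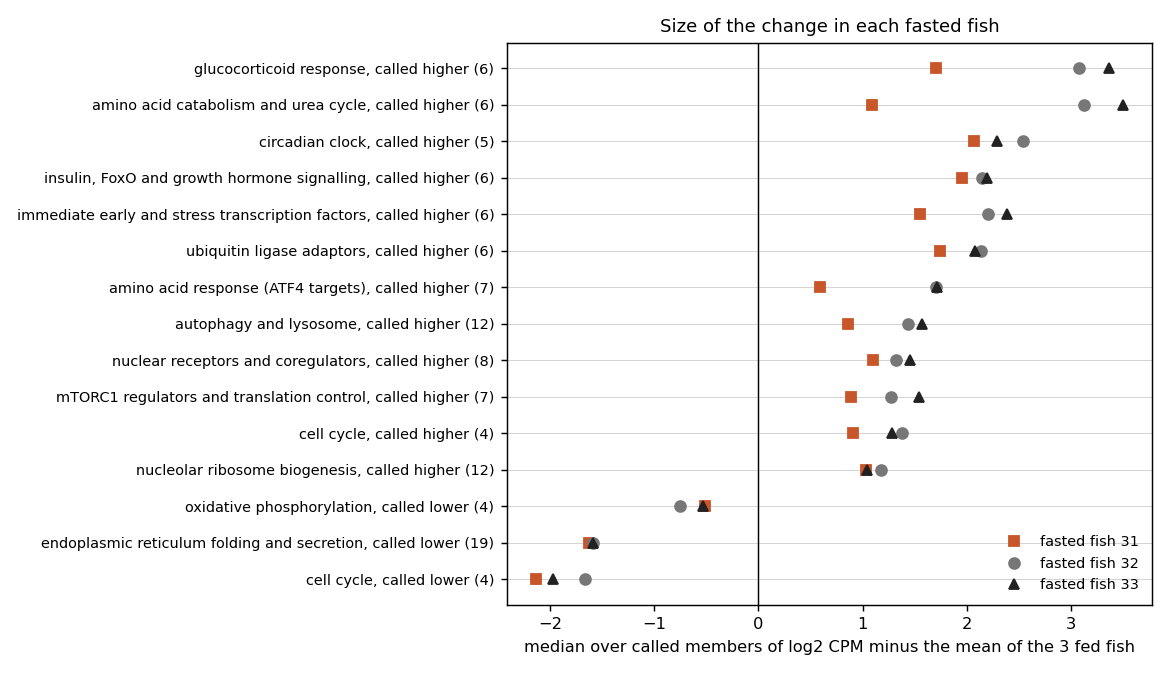
Median, over the called members of each list, of log2 CPM in each fasted fish minus the mean of the 3 fed fish, for lists with 4 or more calls in a direction. Fish 31 (square) lies well under fish 32 and 33 for amino acid catabolism, the glucocorticoid response and ATF4 targets, and level with them for ER genes and nucleolar ribosome biogenesis.

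Clock genes and stress-induced transcription factors were also among the rises. Of 27 clock genes 5 rose and none fell (18.5% called, against 10.7% of all genes). Without overlap and higher were 10 of them, against 16.6% of all genes. The repressor nr1d1, known as REV-ERB alpha, had 0.256, 0.512 and 0.570 CPM in fed and 7.93, 9.06 and 9.06 CPM in fasted fish (4.26 ± 0.681, adjusted p 0.000124). The repressor cry1 had 3.18, 3.31 and 2.25 CPM in fed and 12.3, 15.3 and 14.3 CPM in fasted fish (2.26 ± 0.341, adjusted p 6.56e-05), and nr1d2a rose by 2.23 ± 0.537 (adjusted p 0.00634). In per2, fish 31 had 0.410 CPM, under all 3 fed fish, and fish 32 and 33 had 5.52 and 5.07 CPM (2.23 ± 0.735, adjusted p 0.0465). The call of per2 held in 1 of the 6 fits without 1 fish. All livers were taken in the morning per the labels, with no hour given for each fish, and the part of sampling hour was not tested. The list had 3 rises without fasted fish 32 or fed fish 47.

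Of 26 immediate early and stress factors, 6 rose and 1 fell (26.9% called, against 10.7% of all genes). The antiproliferative gene btg1 had 514, 513 and 515 CPM in the 3 fed fish and 2683, 2421 and 2472 CPM in the fasted fish, with little spread in either group (2.30 ± 0.401, adjusted p 0.000371). The stress factor atf3 had 1.35, 1.06 and 1.04 CPM in fed fish, 1.57 CPM in fish 31, and 6.81 and 6.89 CPM in fish 32 and 33 (2.15 ± 0.526, adjusted p 0.00732). The AP-1 gene jun rose by 0.96 ± 0.249 (adjusted p 0.0103) and klf11a by 2.66 ± 0.756 (adjusted p 0.0201), calls kept in 4 and 3 of the 6 fits. The growth-induced factor egr1 had 154, 41.5 and 46.0 CPM in fed and 22.5, 24.3 and 10.7 CPM in fasted fish (-2.07, adjusted p 0.0440), with fed fish 45 the highest, and its call held in 1 of the 6 fits without 1 fish. The list had 2 rises without fed fish 47, 3 without fed fish 46, and 4 without fasted fish 31 or 32.

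Nuclear receptors and their coregulators had 8 rises and no falls among 41 members, with a median of 0.14. Called were 19.5% of them, against 10.7% of all genes. The adipogenic receptor pparg had 13.8, 13.7 and 11.4 CPM in fed and 69.8, 71.0 and 41.3 CPM in fasted fish (2.23 ± 0.420, adjusted p 0.000828). The fatty acid receptor ppard had 30.2, 34.8 and 37.6 CPM in fed and 68.9, 77.6 and 93.5 CPM in fasted fish (1.23 ± 0.236, adjusted p 0.000945). The retinoid receptor rxrgb rose by 1.30 ± 0.250 log2 units (adjusted p 0.000945). The receptor ppara, which drives fatty acid oxidation in fasted mammalian liver, was not called. It had 78.4, 95.4 and 34.9 CPM in fed fish, 56.2 CPM in fish 31, and 565 and 698 CPM in fish 32 and 33 (2.66 ± 0.994, adjusted p 0.0813). Without fish 31, which lay within the fed range, the adjusted p was 0.0342. With each fish left out in turn, the highest adjusted p was 0.274. Its copy pparab was not called either (-0.61 ± 0.490, adjusted p 0.516). The list had 5 rises without fasted fish 33 or fed fish 47.

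In glucose metabolism the change lay in few genes, with 4.17% called in each list below, against 10.7% of all genes. The largest fall among all named genes was gck, glucokinase, which traps glucose in the fed liver. It had 12.8, 89.6 and 241 CPM in fed fish 45, 46 and 47 and 0.171, 1.48 and 0.195 CPM in fasted fish, so the fed fish differed among themselves as well (-7.47 ± 1.54, adjusted p 0.00186). It was the 1 call among 24 genes of glycolysis and glucose uptake. Of 24 genes of gluconeogenesis and glycogen, the coactivator ppargc1a was called, with 15.3, 15.6 and 19.7 CPM in fed and 77.7, 73.3 and 104 CPM in fasted fish (2.34 ± 0.640, adjusted p 0.0155), a call kept in 2 of the 6 fits without 1 fish. The gluconeogenic enzyme pck1 had 165, 452 and 87.3 CPM in fed fish and 559, 4535 and 4508 CPM in fasted fish. These groups did not overlap, but pck1 was not called (3.77, adjusted p 0.136), and without fish 31 the adjusted p was 0.0964. Glucose-6-phosphatase, g6pc, and fructose bisphosphatase, fbp1b, had log2 fold changes of 0.26 and 0.17 (adjusted p 0.862 and 0.814).

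Lipid genes changed in both directions. Called were 7.32% of the fatty acid oxidation list and 17.2% of the lipolysis list, against 10.7% of all genes. In the synthesis list below, 8% were called. In fatty acid oxidation and ketone metabolism, 1 of 41 members rose, ppard as above, and 2 fell. The peroxisomal oxidase acox3 had 94.4, 106 and 113 CPM in fed and 69.0, 63.8 and 61.8 CPM in fasted fish (-0.69 ± 0.194, adjusted p 0.0191). The peroxisomal enzyme ehhadh had 64.9, 78.8 and 85.2 CPM in fed and 69.5, 37.1 and 26.4 CPM in fasted fish, so fish 31 lay within the fed range (-0.78 ± 0.249, adjusted p 0.0385). Both calls held in 2 of the 6 fits without 1 fish. In lipolysis and lipoproteins, 3 of 29 rose and 2 fell. The phosphatidate phosphatase lpin2 had 113, 111 and 112 CPM in fed and 284, 367 and 407 CPM in fasted fish (1.66 ± 0.333, adjusted p 0.00149). The lipoprotein assembly gene mttp, an ER protein, went from 101, 101 and 117 CPM to 39.7, 43.5 and 41.9 CPM (-1.35 ± 0.327, adjusted p 0.00678). The lipase pnpla2, which opens the breakdown of stored triglyceride, had 28.8, 51.9 and 20.0 CPM in fed and 81.8, 277 and 433 CPM in fasted fish (2.98 ± 0.920, adjusted p 0.0325, kept in 1 of the 6 fits). The hormone-sensitive lipase lipea rose by 1.85 ± 0.520 (adjusted p 0.0183, kept in 2 of the 6 fits). The call of apoea (-4.87 ± 1.50, adjusted p 0.0320) rested on fed fish 45, which had 18.3 CPM against at most 0.273 CPM in the other 5 fish, and without that fish the log2 fold change was 0.04. The list had 1 rise and 1 fall without fasted fish 32 or 33.

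In fatty acid and triglyceride synthesis, 1 of 25 members fell, the acyltransferase gpam, from 24.1, 27.8 and 34.1 CPM to 18.1, 15.8 and 13.7 CPM (-0.85 ± 0.217, adjusted p 0.00944), and 1 rose, the oxysterol receptor nr1h3 (0.93 ± 0.278, adjusted p 0.0269). These calls held in 4 and 3 of the 6 fits without 1 fish. The lipogenic factor srebf1 was not called (1.02 ± 0.461, adjusted p 0.164). The fatty acid synthase gene fasn had 19.7, 23.0 and 17.0 CPM in fed fish, 17.4 CPM in fish 31, and 78.7 and 73.5 CPM in fish 32 and 33 (1.50, adjusted p 0.188). The lysolipid transporter mfsd2a was among the 12 largest rises that met the rule for naming. It went from 8.04, 10.5 and 14.8 CPM to 126, 156 and 123 CPM (3.60 ± 0.620, adjusted p 0.000322).

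Sterol synthesis, with 4.35% called against 10.7% of all genes, showed 1 call in 23 genes. This was insig1, which holds the sterol-regulatory factors in the ER, with 59.7, 64.5 and 122 CPM in fed and 357, 1561 and 1688 CPM in fasted fish (3.87 ± 0.647, adjusted p 0.000229). The median of the list was 0.14, and srebf2, the factor that drives the pathway, had 19.8, 19.8 and 20.2 CPM in fed and 23.1, 50.2 and 37.1 CPM in fasted fish (0.89 ± 0.446, adjusted p 0.221). The summed level of the 23 genes, insig1 included, was 765 to 837 CPM in fed young WT males. In fed young Het males, 4 fish, it was 1315 to 4971 CPM, and in fed old WT males, 3 fish, 1923 to 4184 CPM. In fed old Het males, 4 fish, it was 931 to 5259 CPM, so the lowest old Het sum was near the young WT range. The fed young WT fish had the lowest sums of these 4 fed groups. In the fasting responses of young Het, old WT and old Het males, 20, 18 and 19 of the 23 genes fell. Each old group also had 1 rise. Of all genes tested, 7.12%, 15.6% and 16.3% fell in these 3 groups.

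In nucleolar ribosome biogenesis, 12 of 83 genes rose and 1 fell, 40 were without overlap and higher, and the median was 0.27. Called were 15.7%, against 10.7% of all genes, and 16.6% of all genes were without overlap and higher. The small-subunit processing factor heatr1 had 9.17, 6.21 and 8.15 CPM in fed and 38.9, 39.0 and 31.5 CPM in fasted fish (2.22 ± 0.311, adjusted p 3.19e-05). The helicase ddx18 went from 51.6, 49.6 and 44.7 CPM to 116, 116 and 104 CPM (1.21 ± 0.289, adjusted p 0.00622), and ddx52, ddx55 and rrp8 rose by 1.28, 1.11 and 0.92 log2 units (adjusted p 0.00306, 0.00542 and 0.00492). The nucleolar gene lyar fell (-1.58, adjusted p 0.0147). The list had 8 rises without fasted fish 32 or 33 or without fed fish 45, 46 or 47, and 22 in a fit of the 6 libraries alone. Cytosolic ribosomal proteins had no call among 78 genes, by edgeR or DESeq2, with fold changes from -0.11 to 0.15 on the log2 scale and a median of -0.02. The genes rps9 and rpl10a, which had the smallest p-values of this list, had log2 fold changes of 0.15 ± 0.234 and 0.13 ± 0.239 (adjusted p 0.794 and 0.833).

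Of 59 oxidative phosphorylation genes, 4 fell and none rose (6.78% called, against 10.7% of all genes). Falls made up 4.14% of all genes tested. The complex I subunit ndufb2 had 19.6, 15.6 and 16.0 CPM in fed and 12.0, 9.53 and 11.1 CPM in fasted fish (-0.65 ± 0.178, adjusted p 0.0155), and uqcrq, cox6b1 and cox5aa had log2 fold changes of -0.48, -0.88 and -0.57. None of the 4 calls held without each fish in turn, and the list had no call without fasted fish 32, fasted fish 33 or fed fish 45.

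Among 47 cell cycle genes 4 rose and 4 fell (17% called, against 10.7% of all genes). The mitotic kinases aurkb and plk1 fell, aurkb from 2.52, 2.22 and 2.99 CPM to 0.547, 0.686 and 0.715 CPM (-1.98 ± 0.493, adjusted p 0.00823) and plk1 by 2.61 log2 units (SE 0.752, adjusted p 0.0219). The call of plk1 held in 2 of the 6 fits without 1 fish. The inhibitor cdkn1ba rose by 1.20 ± 0.275 (adjusted p 0.00430). Of the other members that rose, gmnn, the replication licensing inhibitor, had 1.10, 1.09 and 0.772 CPM in fed and 1.95, 2.53 and 2.63 CPM in fasted fish (1.26 ± 0.362, adjusted p 0.0213), and mcm7, a subunit of the replicative helicase, had 2.26, 1.60 and 2.15 CPM in fed and 6.39, 5.52 and 5.75 CPM in fasted fish (1.55 ± 0.461, adjusted p 0.0266). These 2 calls held in 2 and 1 of the 6 fits without 1 fish. The list had 1 rise without fasted fish 32, fasted fish 33, fed fish 45 or fed fish 47, and 1 fall without fasted fish 31, 32 or 33 or fed fish 45.

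Few calls fell in the last lists. Of 36 genes of purine metabolism and AMPK, ppat, the enzyme that commits to purine synthesis, rose (1.24 ± 0.311, adjusted p 0.00856) and the nucleotidase nt5c2 fell (-0.79 ± 0.215, adjusted p 0.0153), and neither was called without fasted fish 32 or 33 or fed fish 47. The gene aprt, which makes AMP from adenine and is the gene altered in the Het groups, had 24.4, 23.7 and 13.3 CPM in fed and 23.4, 18.7 and 16.5 CPM in fasted fish (-0.07 ± 0.228, adjusted p 0.920). Of 28 heat shock and cytosolic chaperone genes, hspa8b (2.16 ± 0.318, adjusted p 5.81e-05) and its co-chaperone bag3 (1.11 ± 0.287, adjusted p 0.0103) rose, and 5 rose without fasted fish 31. This was 7.14% called, against 10.7% of all genes. The median of the 28 was 0.04, and 12 had a log2 fold change below 0. Without overlap, 4 were higher and 5 lower in fasted fish. Of 11 genes of bile acid and xenobiotic metabolism, nr0b2, the repressor of bile acid synthesis, fell (-1.56 ± 0.372, adjusted p 0.00617), but not without fed fish 46, which had 26.6 CPM against 7.20 and 11.5 CPM in the other fed fish. None of 27 genes of iron handling, acute phase and secreted plasma proteins was called by edgeR or DESeq2. Of these, leap2, a secreted peptide that blocks the ghrelin receptor in mammals, had 91.8, 106 and 94.0 CPM in fed and 45.6, 18.8 and 2.99 CPM in fasted fish (-2.11 ± 0.878, adjusted p 0.123).

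**Figure D4:**
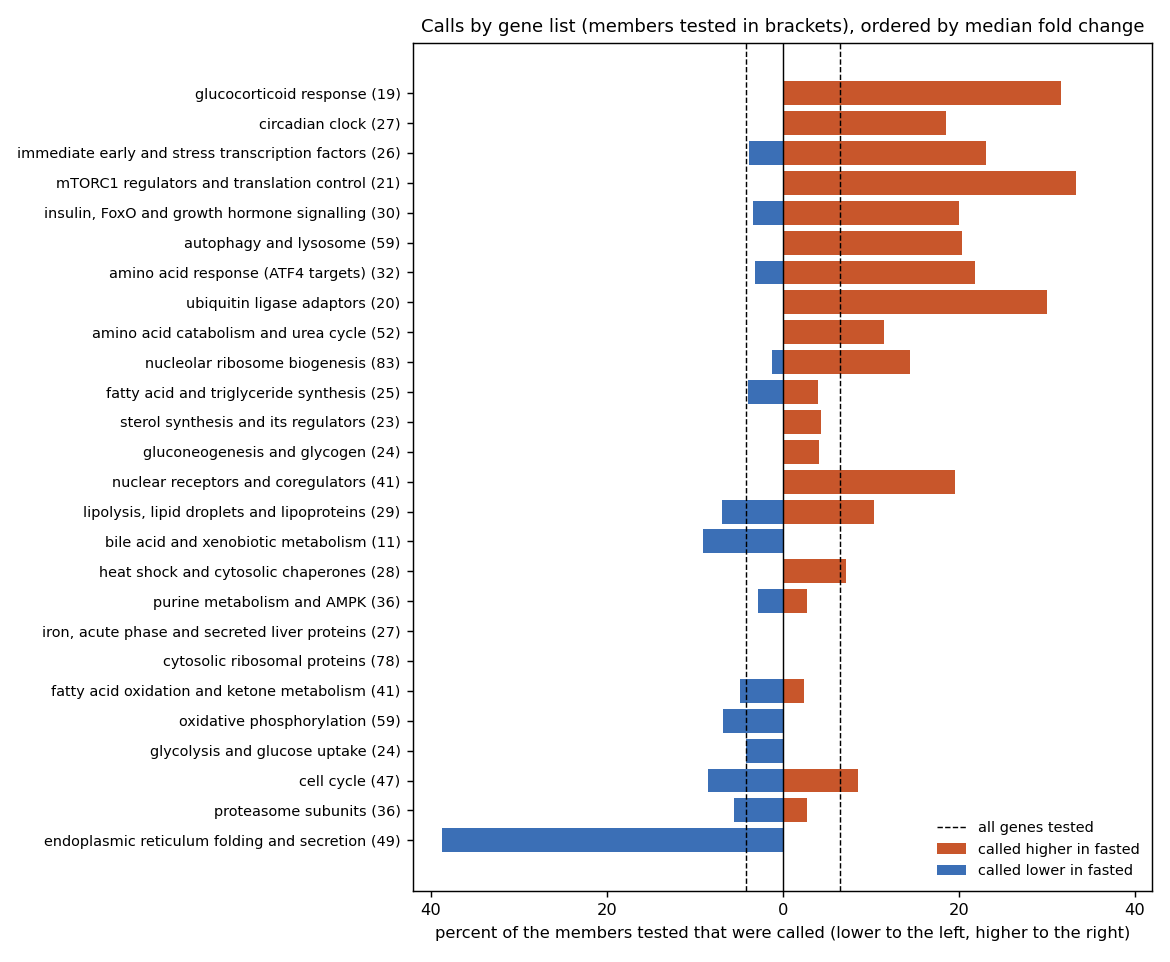
Percent of the members tested that were called higher (orange, right) or lower (blue, left) in fasted fish, for 26 gene lists ordered by median log2 fold change. Dashed lines mark the share of all genes tested, 6.51% higher and 4.14% lower, and the ER list at the bottom has 19 of 49 members lower.

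Several of the largest changes lay outside the lists. Of the 12 largest rises that held without any 1 fish, depdc7 had 0.621, 0.716 and 0.201 CPM in fed and 2.12, 27.5 and 45.8 CPM in fasted fish (5.61 ± 1.18, adjusted p 0.00211). The mitochondrial phosphatase pptc7, which limits mitophagy in mammals, had 3.25, 2.42 and 1.58 CPM in fed and 14.9, 66.9 and 83.8 CPM in fasted fish (4.51 ± 0.867, adjusted p 0.000945). The cAMP-responsive repressor crema had 6.90, 6.89 and 5.74 CPM in fed and 44.2, 150 and 147 CPM in fasted fish (4.13 ± 0.964, adjusted p 0.00521). In these 3 genes fish 31 lay between the fed fish and the other fasted fish. The RNA-binding gene rbm24 rose by 3.46 ± 0.537 (adjusted p 8.81e-05), the potassium channel kcnk5 by 3.43 ± 0.627 (adjusted p 0.000603), and the Polycomb gene cbx7a by 3.35 ± 0.597 (adjusted p 0.000450). Of the 12 largest falls, ppp1r8, a regulatory subunit of protein phosphatase 1, had 10.7, 11.5 and 11.8 CPM in fed and 2.84, 1.66 and 1.40 CPM in fasted fish (-2.53 ± 0.364, adjusted p 4.15e-05). The kinase phosphatase dusp2 had 28.5, 12.6 and 22.1 CPM in fed and 3.79, 3.91 and 3.28 CPM in fasted fish (-2.52 ± 0.547, adjusted p 0.00281), and csgr12h16orf91 fell by 2.45 log2 units (SE 0.597, adjusted p 0.00696).

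The same contrast was available in 3 other groups of males that share no fish with it. These were young Het males of 6.5 weeks (4 fed, 4 fasted), old WT males of 15 weeks (3 fed, 3 fasted) and old Het males (4 fed, 3 fasted), in which 2352 (13.5%), 5033 (28.9%) and 5528 (31.8%) genes were called. Rises made up 6.39%, 13.3% and 15.4% of the genes tested in these groups, and falls 7.12%, 15.6% and 16.3%. Of the 1134 rises, 311 (27.4%) were called higher in young Het, 810 (71.4%) in old WT and 739 (65.2%) in old Het males. Of the 720 falls, 270 (37.5%), 545 (75.7%) and 416 (57.8%) were called lower. Counted from the other side, 24.7% of the calls in young Het, 26.9% in old WT and 20.9% in old Het males were called in the same direction in young WT males. The sign was the same in old WT males for 97.1% of the rises and 97.1% of the falls. In old Het males it was the same for 93.8% and 87.5%, and in young Het males for 82.3% and 80.4%. The share of all genes tested with the same sign is not given here.

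In the ER list, 32 members fell in young Het, 33 in old WT and 28 in old Het males, with 1 rise in each old group, and none of its members differed in a test of the young Het against the young WT response or of the old against the young WT response. In those tests 267 genes (1.53%) differed between young Het and young WT males by edgeR, 88 with a higher (0.506%) and 179 with a lower (1.03%) log2 fold change in Het. Between old and young WT males 3 genes (0.0172%) differed, 1 higher (0.00575%) and 2 lower (0.0115%) in old fish. For the 267 the count ranged from 98 without fasted WT fish 32 to 336 without fed Het fish 52, and by DESeq2 the 2 tests gave 553 and 115 genes. The gene foxo4 had 30.0 ± 9.83 CPM in fed and 32.5 ± 4.03 CPM in fasted young Het males (SD, n = 4 each), against 5.96 and 48.7 CPM on average in the young WT males, so its difference in response, -2.92 (adjusted p 0.000576), went with a higher fed level in Het fish. The same held for zranb1, a deubiquitinase, with 15.3 ± 1.81 and 13.1 ± 1.85 CPM in fed and fasted Het fish against 6.23 and 18.6 CPM in WT fish (difference -1.80, adjusted p 8.05e-05). Of the 23 sterol genes, 10 had a lower response in young Het than in young WT males, and none differed between the old and young WT responses.

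**Figure D5:**
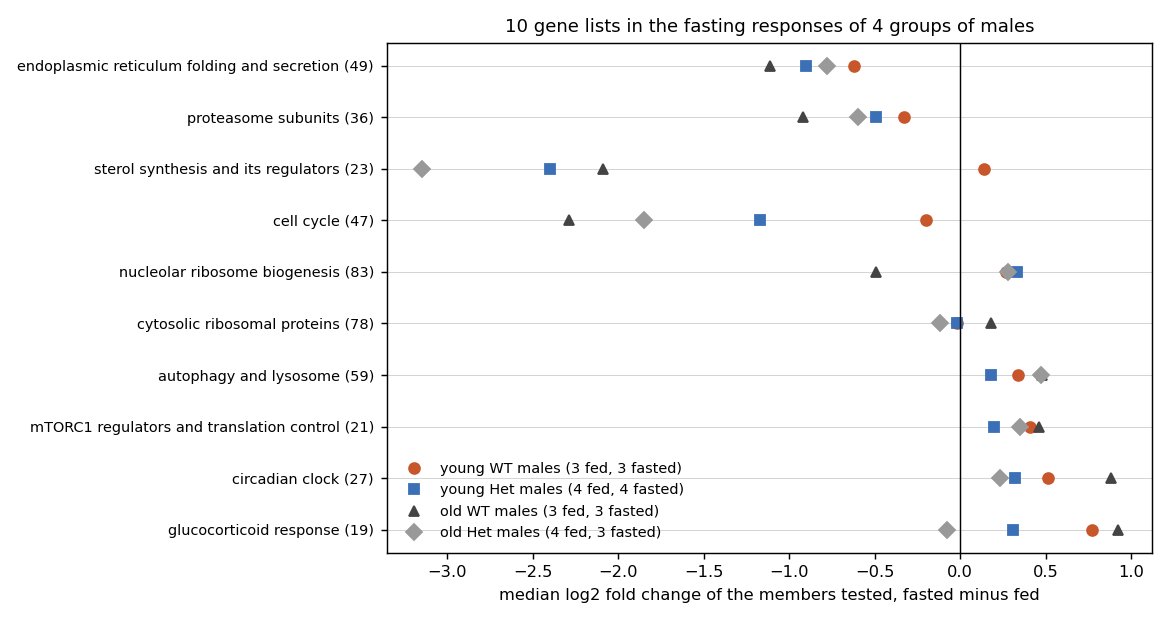
Median log2 fold change (fasted minus fed) over the members tested of 10 gene lists, in young WT males (orange circles) and 3 other groups of males that share no fish with them. The ER and proteasome lists lie under 0 in all 4 groups, and the sterol list lies at 0.14 in young WT males and between -3.15 and -2.09 in the others.

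In old WT males 35 of the 83 nucleolar genes fell and 5 rose (median -0.49), against 23 rises and 3 falls in young Het males, and no member differed in edgeR's test of the old against the young WT response. In the cell cycle list 39 of 47 genes fell in old WT males. Its summed level was 614 to 862 CPM in fed old WT males and 112 to 249 CPM in fasted ones, while the young WT males had 99.1 to 119 CPM when fed and 107 to 119 CPM when fasted. The genes gmnn and mcm7 of this list were 2 of the 3 genes whose response differed with age.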

How the data were processed

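Liver RNA was sequenced single-end from polyadenylated RNA (KAPA mRNA HyperPrep), per the labels' protocols. The authors deposited raw counts per gene for 41 livers. STAR 2.7.6a, Trim Galore 0.6.4, cutadapt 3.4 and FastQC 0.11.8 are named in the submitters' processing notes. The genome build, counting tool and use of strand are not given in the sources used here, so overlapping genes and near-identical copies are uncertain, and no coordinates or sequences are printed. Of 14280 LOC identifiers, 5241 took a symbol from RefSeq (NfurGRZ-RIMD1).

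The table has 25065 genes. The main test was the quasi-likelihood test of edgeR 4.0.16 under R 4.3.3 (TMM, filterByExpr with a minimum count of 10 and a minimum total of 15), with 1 mean per group over all 41 livers, 12 groups in all, and Benjamini-Hochberg adjustment over 17406 genes. All adjusted p-values are from this test unless DESeq2 1.42.0 is named. CPM used TMM library sizes, and log2 CPM a prior count of 2. Errors of log2 fold changes are standard errors worked back from this test, as the absolute log2 fold change over the square root of its F statistic. With 3 fish against 3, an exact permutation test cannot go under p = 0.1, so none was used. Levels well under 1 CPM rest on few reads and carry counting error. In the main test, p-values weigh a difference in group means against the spread between fish within groups. That spread was estimated over all 41 livers in 12 groups, not over the compared livers alone. These groups include females, old fish and Het fish. The steps were tested on simulated counts.

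Named were the 12 largest rises and 12 largest falls with a symbol, a mean log2 CPM of at least 1, no overlap and a call without each fish in turn, up to 5 called members of each of 26 lists, the 5 smallest adjusted p of each difference between responses, and aprt, gck, srebf1, srebf2, ppara, foxo1 and insig1. Other list members were named after their values were seen. Some genes that meet the rule are not reported here. Members, gene lists and 11 marker lists were chosen with earlier results of these data known. Alternatives were RLE size factors, no filter, only the groups compared, DESeq2 and each fish left out.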

Additional observations from a re-analysis of the deposited data

Results flagged for a closer look

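The fasting response of 30 named genes differed between young Het and young WT males (adjusted p under 0.05 in edgeR's test of the difference). Of all genes tested, 267 (1.53%) differed. Most named genes were picked by the size or p-value of their WT response, and 5 by this same test. The count of 30 and the direction of the differences were therefore favoured by that choice. Each difference is given as the log2 fold change in Het minus that in WT. Among the largest changes of the WT males, the difference was -4.54 for pptc7, -3.73 for insig1, -3.89 for mfsd2a, -3.71 for rbm24, -2.70 for flcn and -2.83 for cbx7a. These genes rose in WT males, and none of them was called in young Het males. For ppp1r8, which fell in WT males, it was 2.37, and for pik3r1 it was 2.02.

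In insulin, FoxO and mTORC1 signalling the difference was -2.92 for foxo4, -3.33 for foxo1, -1.16 for fnip1 and -2.05 for sesn1. In autophagy and protein degradation it was -1.58 for atg2b, -2.85 for ulk1a, -3.54 for fbxo32, -1.21 for nedd4 and -3.56 for klhl24. In lipid metabolism and nuclear receptors it was -1.76 for lpin2, -1.42 for ppard, -2.95 for pparg and -2.76 for srebf2. Among regulators of growth, the clock and transcription it was -1.59 for cdkn1ba, -2.08 for gmnn, -2.40 for mcm7, -1.66 for cry1, -1.62 for jun, -3.48 for ccng2, -1.08 for asxl2, -1.80 for zranb1 and -2.50 for lonrf1.

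The mean fed level was higher in Het than in WT males for 28 of these 30 genes, and lower for ppp1r8 and pik3r1, a difference that was not tested. The 30 genes were picked through values of the same fed WT fish, so this count is not independent of their choice. Both ppp1r8 and pik3r1 fell in WT males. The gene mfsd2a had a mean of 11.1 CPM in fed WT and 177 CPM in fed Het males, with 135 and 145 CPM after fasting. The gene klhl24 had 40.2 and 342 CPM when fed and 267 and 193 CPM when fasted. For srebf2 the fed levels were 19.9 and 90.7 CPM and the fasted levels 36.8 and 24.7 CPM. Genotype and the state of the fed fish cannot be told apart here.

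Between old and young WT males the response differed in 3 genes. The difference, old minus young, was -2.97 for gmnn and -4.09 for mcm7, which rose in young and fell in old males, and 3.31 for anxa5, which was called higher in old males (2.22, adjusted p 0.000172) and was not called in young males (-1.08, adjusted p 0.0932).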

How the results depend on the processing

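The count of 1854 calls was 1910 with RLE size factors, 1526 without a filter, 2059 with the 6 libraries alone and 2463 by DESeq2, and 813 to 2245 with each fish left out. The 267 genes that differed between young Het and young WT responses became 174 without a filter, 564 with only the groups compared and 553 by DESeq2, and 98 to 336 with each fish left out. The 3 genes that differed with age became 115 by DESeq2 and 1 to 28 with each fish left out, 28 without fasted old fish 18. The cause was not tested. Of 107 named genes that were called, 106 were called by DESeq2, 106 with RLE size factors and 102 without a filter. With the 6 libraries alone, 99 of the 105 that could be tested were called, and 72 with each fish left out in turn. The 12 largest rises and 12 largest falls were named only if called without each fish, so part of the 72 was fixed beforehand. Over all genes tested, 585 of the 1854 calls held without each fish in turn. The log2 fold change of apoea, -4.87, ran from -5.44 to 0.04 with each fish left out, with 0.04 (adjusted p 1) without fed fish 45. No paired analysis was possible because fed and fasted fish share no replicate numbers.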

Other observations

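Gene families picked by the start of the symbol after their values were seen are described here without a test. Of 13 alg genes, which build the sugar chain put on new proteins in the ER, 4 fell and none rose. The gene alg5 had 29.7, 32.2 and 34.4 CPM in fed and 12.0, 9.95 and 9.26 CPM in fasted fish (-1.63, adjusted p 0.00308), and alg6 had 7.64, 6.99 and 8.62 CPM in fed and 2.50, 1.32 and 0.650 CPM in fasted fish (-2.38, adjusted p 0.00907). Of 76 mitochondrial ribosomal proteins, 9 fell and 1 rose, with a median of -0.22. The subunit mrps12 had 7.89, 5.80 and 6.44 CPM in fed and 3.49, 3.01 and 3.35 CPM in fasted fish (-1.03, adjusted p 0.00302), whereas mrpl10 rose from 18.7, 18.9 and 16.1 CPM to 26.1, 27.1 and 30.2 CPM (0.64, adjusted p 0.00135).

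Over all genes tested, 6.51% rose and 4.14% fell. Of 64 ring finger genes named rnf, 15 rose and 3 fell, and of 45 ubiquitin-specific peptidases named usp, 14 rose and 3 fell. The gene rnf216 had 5.33, 6.75 and 4.90 CPM in fed and 16.6, 16.9 and 16.1 CPM in fasted fish (1.55, adjusted p 9.06e-06), and rnf34a fell from 5.74, 7.98 and 8.19 CPM to 2.73, 2.38 and 3.54 CPM (-1.34, adjusted p 0.000116). The nucleolar peptidase usp36 had 28.0, 26.9 and 25.1 CPM in fed and 52.2, 61.8 and 52.9 CPM in fasted fish (1.06, adjusted p 0.00119). Of 269 solute carriers, 14 rose and 10 fell, shares under those of all genes. The nucleotide carriers of mitochondria moved apart, with slc25a33 at 39.9, 39.9 and 28.7 CPM in fed and 169, 280 and 279 CPM in fasted fish (2.75, adjusted p 0.00139) and slc25a36 at 65.8, 105 and 116 CPM in fed and 40.0, 15.9 and 23.2 CPM in fasted fish (-1.86, adjusted p 0.000202).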
